A study of Mus musculus with 9 samples.

Results

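Mt1 (ENSMUSG00000031765) and Mt2 (ENSMUSG00000031762) encode metallothionein 1 and metallothionein 2, and were followed here through RNA sequencing of C2C12 myotubes. They were found by symbol and are 2 of the 10716 genes of the deposited table. C2C12 is a mouse myoblast line that fuses into multinucleated myotubes when it differentiates. The 9 libraries came from 3 groups of 3. Myotubes received 50 µM dexamethasone together with 10 µM THSG, 50 µM dexamethasone alone, or vehicle, and all were treated for 24 h. Dexamethasone, a synthetic glucocorticoid, is in common use to induce wasting of cultured muscle cells, and THSG is named in the labels by this abbreviation only. Every group was the same clonal cell line, and no group received THSG alone. The labels do not say that libraries of a group came from separate cultures, so p-values measure only the spread between these libraries, which may be technical.

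Metallothioneins are small intracellular proteins rich in cysteine. Their thiol groups bind zinc and copper, bind cadmium when cells are exposed to it, and react with oxidants. Transcription of Mt1 and Mt2 is induced by zinc through the factor MTF-1, which binds short metal response elements in their promoters. Both genes are also textbook targets of glucocorticoids, and both are known to rise in wasting muscle. Mt3 and Mt4, the other metallothioneins of the mouse, are known mainly from brain and from squamous epithelia.

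The coding sequences are shown first, because the cysteines in them are what makes these proteins metal binders and because their likeness bears on whether reads of the genes can be told apart. They were read from GENCODE transcripts on the mouse build GRCm38, where both genes lie on chromosome 8, and capitals mark the in-frame cysteine codons.
Mt1 coding sequence: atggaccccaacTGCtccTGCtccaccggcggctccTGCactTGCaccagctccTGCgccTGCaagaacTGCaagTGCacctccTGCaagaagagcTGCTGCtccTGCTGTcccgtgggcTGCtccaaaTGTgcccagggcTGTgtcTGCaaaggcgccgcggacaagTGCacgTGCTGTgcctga
Mt2 coding sequence: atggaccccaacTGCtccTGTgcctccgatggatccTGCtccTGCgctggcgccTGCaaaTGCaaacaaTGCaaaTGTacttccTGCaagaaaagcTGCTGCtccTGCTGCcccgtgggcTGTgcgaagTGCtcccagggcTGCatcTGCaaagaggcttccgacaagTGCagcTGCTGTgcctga
Each sequence is 186 bases long, with 61 codons before the stop. Each holds 20 cysteine codons, which is 32.8% of its codons, and all 20 stand at the same positions in both genes. The coding sequences were identical at 148 of 186 bases (79.6%), yet the longest identical run was 20 bases. The full 3-exon transcripts shared 0 words of 25 bases. Among other annotated genes, Mt3 and Pip5k1a were the only ones to share a word of 25 bases with either transcript, and 0 shared a word of 50 bases.

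The promoters are shown because the metal response elements that MTF-1 binds lie in this kind of window. Each printed stretch runs from 250 bases before the RefSeq start of the gene to 30 bases after it, on the plus strand of GRCm38.p6. Capitals mark matches to the metal response element, spelled TGCACNC or TGCGCNC, on either strand. The Mt1 stretch is chr8:94178839-94179118 and the Mt2 stretch is chr8:94172368-94172647.
Mt1 promoter: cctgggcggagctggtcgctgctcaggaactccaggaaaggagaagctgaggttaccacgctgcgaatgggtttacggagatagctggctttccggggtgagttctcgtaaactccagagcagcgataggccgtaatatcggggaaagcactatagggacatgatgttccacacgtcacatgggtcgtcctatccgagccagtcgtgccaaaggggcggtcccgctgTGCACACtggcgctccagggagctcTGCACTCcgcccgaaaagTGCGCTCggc
Mt2 promoter: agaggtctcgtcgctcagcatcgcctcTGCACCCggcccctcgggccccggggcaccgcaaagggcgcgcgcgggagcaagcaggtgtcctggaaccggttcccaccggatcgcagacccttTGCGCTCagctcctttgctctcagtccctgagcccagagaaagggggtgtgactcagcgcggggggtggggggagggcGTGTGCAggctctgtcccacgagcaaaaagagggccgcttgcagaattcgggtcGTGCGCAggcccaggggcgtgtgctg
In the whole window of 300 bases, which ends 50 bases after the start, Mt1 held 3 matches to either spelling and Mt2 held 4. Of 32851 RefSeq promoter windows of this length, 25.7% held at least 1 match, 1.97% held at least 3 and 0.517% held at least 4. Counted from the start, with negative positions before it, the Mt1 matches began at positions -23, 3 and 21. The Mt2 matches began at positions -223, -128, -50 and 5, and the ones at -50 and 5 were on the minus strand. A match is a description of letters and does not show that the factor binds there.

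The full palindromic glucocorticoid response element matched once in the Mt1 window, on either strand. The match read GGACATGATGTTC, ran over positions -94 to -82, and shared no base with the marked elements. Matches to that motif were found in 0.475% of the windows. The Mt2 window held 0 matches to it, and sequence farther upstream was not searched for either gene. The shorter spelling AGAACA, present in 19.0% of windows, had 0 matches in either window. An antioxidant response element, spelled TGACNNNGC, matched once in the Mt2 window, at position -79, and 0 times in the Mt1 window, against 12.4% of windows. The letters CACGTG, the E-box of the factor USF, and TATAAA had 0 matches in both windows, and were present in 7.15% and 13.6% of windows. Relative to the RefSeq start, annotated GENCODE transcripts of Mt1 start at -7, 122 and 152, and those of Mt2 at 46 and 242, so the window does not surround every start. It ends 50 bases after the RefSeq start, so bases just before the starts at 122, 152 and 242 were not searched. All match counts, 0 included, hold for the window alone and do not show that a promoter lacks a motif.

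Both metallothionein messages rose with dexamethasone. Mt2 was 14.4-fold higher in mean level than in vehicle myotubes, and Mt1 was 6.33-fold higher. With THSG added to dexamethasone, both stayed far above vehicle, at 15.6-fold for Mt2 and 7.1-fold for Mt1. The difference between THSG plus dexamethasone and dexamethasone alone passed the test for neither gene. Levels are given as FPKM, fragments scaled to transcript length and library size, a unit inferred from the values of the deposited table and stated in no header or label. Log2 fold changes are differences of mean log2(FPKM + 0.1), tested with limma across all genes.

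For Mt2, the libraries held 2015.44, 1835.09 and 1914.2 FPKM with THSG plus dexamethasone, 1778.97, 1720.01 and 1821.72 FPKM with dexamethasone, and 127.488, 134.612 and 107.335 FPKM with vehicle. The lowest library with dexamethasone stood far above the highest vehicle library, and the groups did not overlap. Group means were 1922 ± 90.4 FPKM with THSG plus dexamethasone, 1774 ± 51.1 FPKM with dexamethasone and 123 ± 14.1 FPKM with vehicle (SD, n = 3 each). The Mt2 log2 fold change for dexamethasone over vehicle was 3.85 (SE 0.076, 95% interval 3.69 to 4.02), with an adjusted p of 1.22e-11 by limma. By that fold change Mt2 had the 4th largest rise of the 10716 genes.

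For Mt1, the libraries held 1290.49, 1291.67 and 1296.81 FPKM with THSG plus dexamethasone, 1084.74, 1216.45 and 1156.75 FPKM with dexamethasone, and 204.76, 189.577 and 151.68 FPKM with vehicle. Again every library that received dexamethasone lay above every vehicle library. Group means were 1293 ± 3.36 FPKM with THSG plus dexamethasone, 1153 ± 66.0 FPKM with dexamethasone and 182 ± 27.3 FPKM with vehicle (SD, n = 3 each). The Mt1 log2 fold change for dexamethasone over vehicle was 2.67 (SE 0.091, 95% interval 2.47 to 2.87), with an adjusted p of 1.36e-09 by limma, and its rise ranked 15th.

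Both genes thus passed an adjusted p of 0.05 and had groups that did not overlap in dexamethasone against vehicle. Of all 10716 genes, 33.6% passed that threshold, 12.7% as higher and 20.9% as lower. Groups that did not overlap were found for 45.9%, and 18% of genes were higher in this way. A call alone was therefore common among the genes of the table. Only 6 genes had a smaller p than Mt2, and 30 had a smaller p than Mt1. The vehicle library with the lowest value was replicate 3 for both genes.

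**Figure D1:**
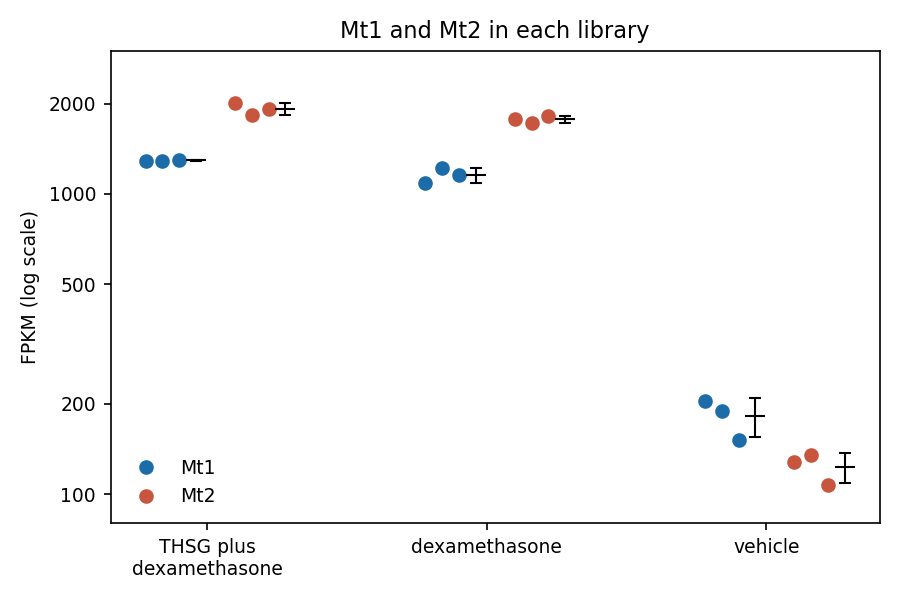
FPKM of Mt1 and Mt2 in each of the 9 libraries, on a log axis, by group. Points are libraries and bars show the mean and SD of 3 libraries. The 6 libraries with dexamethasone lie between 1084.74 and 2015.44 FPKM, and the 3 vehicle libraries between 107.335 and 204.76 FPKM.

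Against vehicle, THSG plus dexamethasone gave an Mt2 log2 fold change of 3.97 (95% interval 3.8 to 4.13), with an adjusted p of 8.72e-12 by limma. The Mt1 log2 fold change in that comparison was 2.84 (95% interval 2.64 to 3.04), with an adjusted p of 7.87e-10 by limma. Both genes were called, against 29.1% of all genes, with 12.1% called higher and 17% lower. Their groups did not overlap, as for 43.1% of all genes, and 17.9% of genes were higher in this way. These libraries were set against the same vehicle libraries as dexamethasone alone, so both sets of values share their baseline.

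Between THSG plus dexamethasone and dexamethasone, all 3 libraries with THSG were above all 3 without it, for Mt1 and for Mt2. Mt1 was 1.12-fold higher in mean FPKM, a log2 fold change of 0.17 (95% interval -0.03 to 0.37), with an unadjusted p of 0.0908 and an adjusted p of 0.718 by limma. Mt2 was 1.08-fold higher in mean FPKM, a log2 fold change of 0.11 (95% interval -0.05 to 0.28), with an unadjusted p of 0.155 and an adjusted p of 0.77 by limma. Both intervals use a spread estimated from all 9 libraries, vehicle included. Groups that did not overlap were found in 13.3% of all genes, and 8.41% of genes were higher with THSG in this way. In this comparison limma called 0 of 10716 genes, which is 0%, while 7.25% had an unadjusted p under 0.05.

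The spread within groups was small beside the change with dexamethasone. The coefficient of variation of Mt1 was 0.26% with THSG plus dexamethasone, 5.72% with dexamethasone and 15% with vehicle. That of Mt2 was 4.7% with THSG plus dexamethasone, 2.88% with dexamethasone and 11.5% with vehicle. Vehicle libraries varied most for both genes, in relative terms.

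The balance between the genes moved as well. Mt2 per Mt1 was 1.56, 1.42 and 1.48 in the libraries with THSG plus dexamethasone, 1.64, 1.41 and 1.57 with dexamethasone, and 0.623, 0.71 and 0.708 with vehicle. This ratio is taken within a library, so scaling between libraries does not touch it. All 6 libraries that received dexamethasone had a ratio above 1 and all 3 vehicle libraries had a ratio below 1. The mean log2 ratio was 0.57 ± 0.069 with THSG plus dexamethasone, 0.62 ± 0.111 with dexamethasone and -0.56 ± 0.108 with vehicle (SD, n = 3 each).

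Over the 6 libraries with dexamethasone and the 3 with vehicle, the mean log2 ratio differed by 1.16, a 2.23-fold higher Mt2 per Mt1 with dexamethasone (exact permutation test, two-sided, p = 0.0238, the smallest that 6 against 3 allows). Libraries with and without THSG were pooled because 3 against 3 cannot reach 0.05, so the 6 are not replicates of 1 treatment. Without any 1 of the vehicle libraries, the smallest p that can be reached is 0.0714, and the log2 difference was 1.09 without replicate 1 and 1.19 without replicate 2 or replicate 3. Dexamethasone alone against vehicle gave a 2.27-fold higher ratio (exact permutation p = 0.1, the smallest that 3 against 3 allows). THSG plus dexamethasone against vehicle gave a 2.19-fold higher ratio (exact permutation p = 0.1). Between THSG plus dexamethasone and dexamethasone the log2 ratio differed by -0.05 (exact permutation p = 0.5), less than the spread between replicates.

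Which of the genes stood higher is less certain than the shift between groups. FPKM divides by a transcript length, and the lengths the authors used are not given in the sources used here. The 3-exon transcripts of Mt1 and Mt2 measure 549 and 511 bases in GENCODE, a ratio of 1.07, while all annotated exons joined measure 1246 and 588 bases, a ratio of 2.12. If the joined exons had been used where the 3-exon transcripts are expressed, the mean ratio of Mt2 to Mt1 would be 0.754 with THSG plus dexamethasone, 0.782 with dexamethasone and 0.345 with vehicle. The fold differences in the ratio between groups are the same under either choice, provided that each gene keeps the same mix of transcripts in every group. That mix was not measured.

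**Figure D2:**
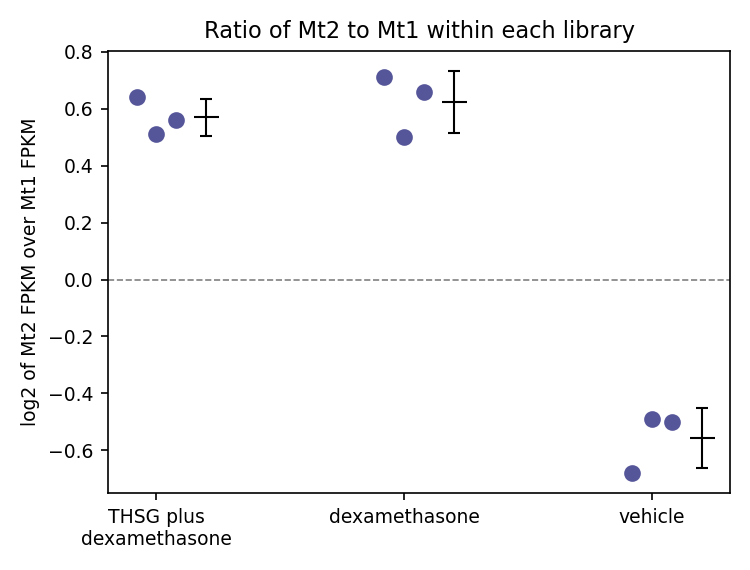
Log2 of Mt2 FPKM over Mt1 FPKM in each library, by group, with the mean and SD of 3 libraries beside the points. The dashed line marks equal levels. The 6 libraries with dexamethasone lie between 0.5 and 0.71, and the 3 vehicle libraries between -0.68 and -0.49.

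The genes were also summed and ranked among all genes. These sums, shares and ranks rest on the same unknown transcript lengths as the order of Mt1 and Mt2, and were not computed under other lengths. Mt1 and Mt2 summed to 3215 ± 89.6 FPKM with THSG plus dexamethasone, 2926 ± 58.1 FPKM with dexamethasone and 305.2 ± 40.2 FPKM with vehicle (SD, n = 3 each). That sum was 0.789%, 0.772% and 0.779% of the summed FPKM of the table with THSG plus dexamethasone, 0.704%, 0.724% and 0.726% with dexamethasone, and 0.0787%, 0.0777% and 0.0647% with vehicle. By mean FPKM, Mt2 ranked 19th of 10716 genes with THSG plus dexamethasone, 22nd with dexamethasone and 479th with vehicle. Mt1 ranked 29th with THSG plus dexamethasone, 30th with dexamethasone and 311th with vehicle.

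Over the 9 libraries, the summed FPKM ran between 400218 and 422379 and the level of the median gene between 12.1 and 12.8 FPKM. Counts are not part of the table, so depth is unknown. The smallest value in the table is 1.0 FPKM, and Mt3 and Mt4 have no row in it. With dexamethasone, 12.7% of all genes were called higher and 20.9% lower, the shares to set beside the marker counts that follow. All 15 listed myotube markers were measured, and 10 of them rose with dexamethasone and 0 fell, with summed levels of 13110 to 13490 FPKM with THSG plus dexamethasone, 12510 to 13420 FPKM with dexamethasone and 11200 to 12530 FPKM with vehicle. Of 8 markers of proliferating cells, 7 were measured (Mki67 has no row) and all 7 fell, with sums of 20.0 to 23.6 FPKM with THSG plus dexamethasone, 19.4 to 25.4 FPKM with dexamethasone and 56.1 to 65.0 FPKM with vehicle. Of 8 markers of reserve cells or fibroblasts, 6 were measured, of which 2 rose and 4 fell, with sums of 446.9 to 448.3 FPKM with THSG plus dexamethasone, 418.6 to 431.4 FPKM with dexamethasone and 737.1 to 794.9 FPKM with vehicle. Of the markers of other cell types, 1 of 8 for adipocytes, 2 of 8 for osteoblasts or chondrocytes and 0 of 8 for macrophages or endothelial cells were in the table. These shifts in cell markers went along with the rise of Mt1 and Mt2, and their part in it was not tested. In bulk RNA, fewer cells of a type and less RNA per cell cannot be told apart.

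Genes with the profile most like Mt2 or Mt1 were chosen from these values, as the 5 with the smallest root mean square difference in log2 level over the 9 libraries, each gene taken relative to its vehicle mean. They are a description and carry no test. Closest to Mt2 was Fkbp5, whose protein is a co-chaperone in glucocorticoid receptor complexes, at a difference of 0.114 and levels of 98.6 ± 2.65 FPKM with THSG plus dexamethasone, 97.8 ± 0.377 FPKM with dexamethasone and 6.57 ± 0.214 FPKM with vehicle (SD, n = 3 each). Its log2 fold change for dexamethasone over vehicle, 3.88, stood beside 3.85 for Mt2. Selenop, the secreted selenium carrier, followed at 0.155, with a log2 fold change of 3.8. Ccdc152, at 0.168 and 3.94, is annotated in overlap with Selenop on the opposite strand, and the strand setting of the counting is not given, so their reads may not be separate. Pdk4, a kinase that shuts down pyruvate dehydrogenase, stood at 0.408 and Fam180a at 0.614. By this difference, which depends on the size of the change, likeness to Mt2 fell off after the first 3 genes. Pearson r with Mt2 did not fall off in the same way, at 0.998 for Fkbp5, 0.999 for Pdk4 and 0.99 for Fam180a.

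Closest to Mt1 was Gas6, a secreted ligand of the TAM receptor kinases, at a root mean square difference of 0.137. Gas6 averaged 16.65 FPKM with THSG plus dexamethasone, 16.22 FPKM with dexamethasone and 2.36 FPKM with vehicle. Next came the serum and glucocorticoid regulated kinase Sgk1 at 0.163, the guanine exchange factor Mcf2l at 0.192, xanthine dehydrogenase Xdh at 0.207 and the membrane dipeptidase Dpep1 at 0.247. Their log2 fold changes for dexamethasone over vehicle ran between 2.66 and 2.95, around the 2.67 of Mt1. These genes stood far below Mt1 in level, and the most abundant of them, Sgk1, averaged 99.9 FPKM with THSG plus dexamethasone, 100.3 FPKM with dexamethasone and 15.8 FPKM with vehicle. Over the 9 libraries, 452 genes had a Pearson r over 0.95 with Mt1 and 468 with Mt2. All of these points share the same 9 libraries and the same split by dexamethasone.

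**Figure D3:**
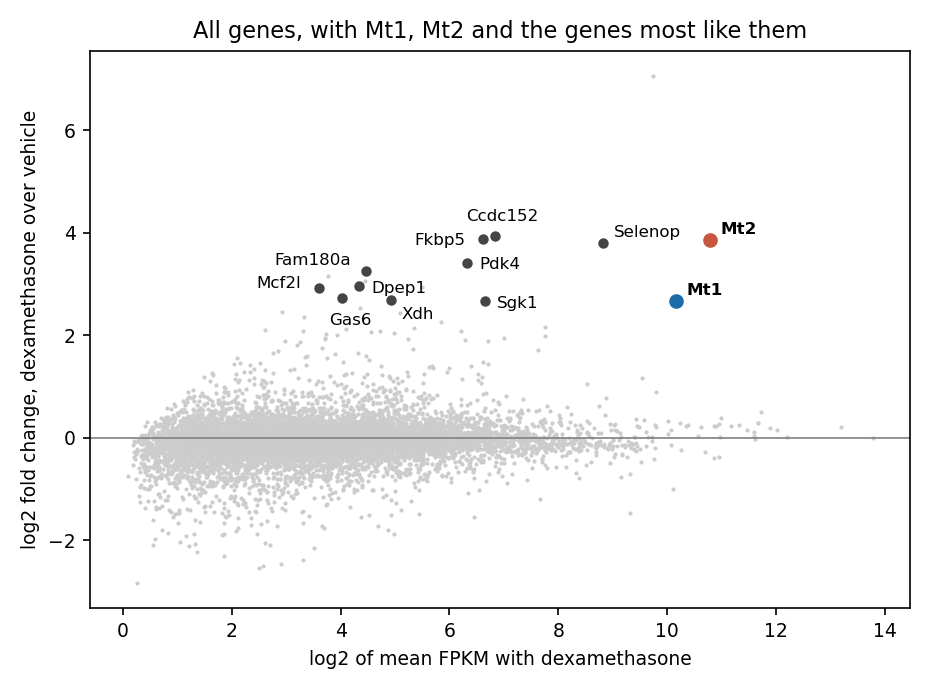
Log2 fold change for dexamethasone over vehicle against log2 of mean FPKM with dexamethasone, for all 10716 genes. Mt1 and Mt2 are coloured, and the 10 genes most like them are dark and named. Mt2 and Mt1, at log2 fold changes of 3.85 and 2.67, lie to the right of all 10 of those genes, so they were the most abundant of the 12.

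Glucocorticoid response genes, listed without the metallothioneins, largely moved the same way. Of 30 listed genes 22 were measured, and 17 rose and 2 fell with dexamethasone, against 12.7% and 20.9% of all genes. The median log2 fold change was 0.84 in the list and -0.05 over all genes. Glul, glutamine synthetase, averaged 220.1 FPKM with THSG plus dexamethasone, 216.1 FPKM with dexamethasone and 54.3 FPKM with vehicle, a log2 fold change of 1.99 for dexamethasone over vehicle (adjusted p 1.22e-11, limma). Nr3c1, the glucocorticoid receptor itself, was among those that fell, with 11.75 FPKM with THSG plus dexamethasone, 11.49 FPKM with dexamethasone and 15.06 FPKM with vehicle, and a log2 fold change of -0.39 (adjusted p 0.00629, limma). The list is made of known targets, so its direction is not independent evidence of anything about Mt1 and Mt2.

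Zinc handling genes outside the metallothioneins moved in both directions, each by less than Mt1. Mtf1, which encodes MTF-1, averaged 6.71 ± 0.529 FPKM with THSG plus dexamethasone, 6.61 ± 0.138 FPKM with dexamethasone and 6.36 ± 0.622 FPKM with vehicle (SD, n = 3 each). Its log2 fold change for dexamethasone over vehicle was 0.06 (95% interval -0.15 to 0.26, adjusted p 0.67, limma). This is a message level. Zinc and the activity of MTF-1 were not measured, and their part in the changes of genes named here was not tested. Of 6 listed genes for MTF-1 and its other zinc-responsive targets, 1 rose and 3 fell, with a median log2 fold change of -0.17, where 12.7% of all genes rose and 20.9% fell. The list holds Mtf1 itself and Slc39a10, which zinc is known to repress, so its counts and median do not describe a single direction of response. Selenoh, a nuclear selenoprotein, fell by 0.85 on the log2 scale (adjusted p 0.00103, limma), with 9.21 ± 1.42 FPKM with THSG plus dexamethasone, 8.44 ± 1.85 FPKM with dexamethasone and 15.2 ± 1.59 FPKM with vehicle. Ndrg1 fell by 0.39 on the log2 scale (adjusted p 7.96e-05, limma). Gclc, a subunit of the enzyme that limits glutathione synthesis, had a log2 fold change of 0.15 and did not pass (adjusted p 0.217, limma).

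Zinc exporters move zinc out of the cytosol, and 6 of the 10 listed were measured. With dexamethasone 0 rose and 1 fell, against 12.7% and 20.9% of all genes, and the median log2 fold change was -0.07. These counts are a description only. The gene that fell was Slc30a1, which encodes the plasma membrane exporter ZnT1 and is a known target of MTF-1. Slc30a1 averaged 1.49 ± 0.217 FPKM with THSG plus dexamethasone, 1.71 ± 0.098 FPKM with dexamethasone and 2.45 ± 0.139 FPKM with vehicle (SD, n = 3 each). Its libraries ran from 1.248 FPKM with THSG plus dexamethasone to 2.61 FPKM with vehicle. That is near 1.0 FPKM, the smallest value in the table, at a depth that is unknown. Its log2 fold change for dexamethasone over vehicle was -0.5 (SE 0.142, adjusted p 0.0183, limma). That call was lost without dexamethasone replicate 2 (-0.47, adjusted p 0.0557) and without vehicle replicate 1 (-0.45, adjusted p 0.0652, limma), which left 0 exporters called.

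Zinc importers bring zinc into the cytosol, and 9 of the 14 listed were measured. With dexamethasone 2 rose and 4 fell, against 12.7% and 20.9% of all genes, and the median log2 fold change was -0.17. Slc39a10, which encodes ZIP10, averaged 8.75 ± 0.351 FPKM with THSG plus dexamethasone, 9.35 ± 0.879 FPKM with dexamethasone and 4.1 ± 0.268 FPKM with vehicle, and was 1.17 higher on the log2 scale with dexamethasone than with vehicle (SE 0.091, adjusted p 1.66e-06, limma). It is also the gene that rose among the zinc-responsive targets, and zinc is known to repress it through MTF-1. Whether zinc or MTF-1 had a part in its rise was not tested. Slc39a14, which encodes ZIP14, a carrier of zinc and iron that is induced in wasting muscle, averaged 34.4 ± 1.6 FPKM with THSG plus dexamethasone, 33.5 ± 0.645 FPKM with dexamethasone and 18.0 ± 0.536 FPKM with vehicle, and was 0.89 higher on the log2 scale with dexamethasone than with vehicle (SE 0.051, adjusted p 1.24e-07, limma).

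The importers that fell did so by less. Slc39a7, which encodes the endoplasmic reticulum carrier ZIP7, fell by 0.46 on the log2 scale (adjusted p 0.000493, limma), and Slc39a1 fell by 0.34 (adjusted p 8.28e-05, limma). Slc39a11 fell by 0.47 (adjusted p 0.0126, limma), a call lost with a replicate block and a correction for GC content and length together (-0.38, adjusted p 0.0512). Slc39a13 fell by 0.27 (adjusted p 0.0282, limma), and this call was fragile. It was lost without dexamethasone replicate 1 or 3 (adjusted p 0.0976 and 0.107), without vehicle replicate 1 or 2 (adjusted p 0.106 and 0.0591), with median-ratio scaling (adjusted p 0.0561), without an intensity trend (adjusted p 0.058) and with the GC and length correction (-0.1, adjusted p 0.306). In THSG plus dexamethasone against dexamethasone, limma called 0 genes of either zinc list, as it called 0 of all 10716 genes.

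**Figure D4:**
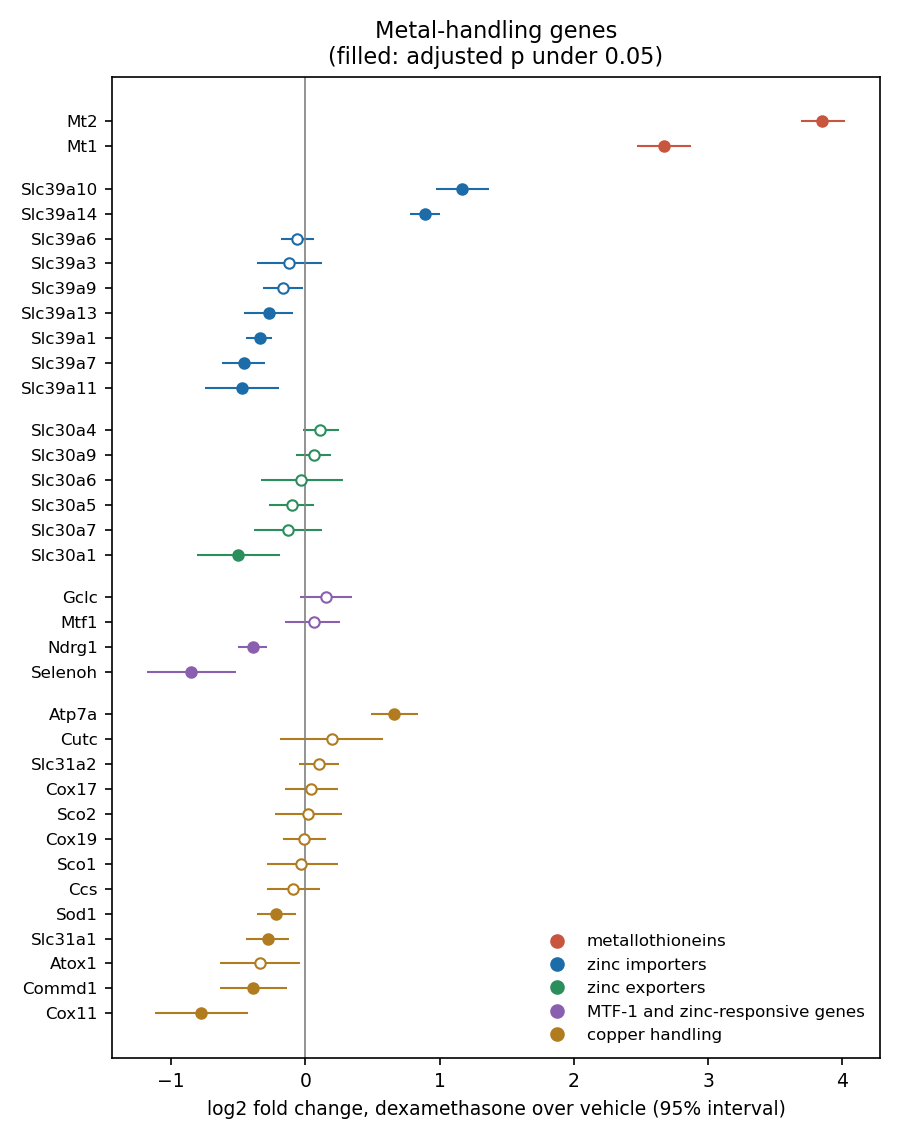
Log2 fold change for dexamethasone over vehicle, with 95% intervals, for the measured genes of 5 lists of metal handling, coloured by list. Filled points passed an adjusted p of 0.05. Mt2 at 3.85 and Mt1 at 2.67 stand to the right of every other gene plotted, of which Slc39a10 at 1.17 is the next.

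For copper handling, 13 of 14 listed genes were measured, of which 1 rose and 4 fell, with a median log2 fold change of -0.03. Over all genes of the table, 12.7% were called higher and 20.9% lower, so these counts are not read as a result about copper genes. Atp7a, the copper pump that supplies secreted copper enzymes and exports the metal, averaged 10.7 ± 0.512 FPKM with THSG plus dexamethasone, 11.1 ± 0.466 FPKM with dexamethasone and 6.99 ± 0.589 FPKM with vehicle, a log2 fold change of 0.66 (adjusted p 5.71e-05, limma). Slc31a1, the main copper importer, fell by 0.28 on the log2 scale (adjusted p 0.0101, limma). Cox11, which inserts copper into cytochrome oxidase, fell by 0.78 (adjusted p 0.00279, limma), with 3.96 ± 0.898 FPKM with THSG plus dexamethasone, 2.06 ± 0.187 FPKM with dexamethasone and 3.6 ± 0.335 FPKM with vehicle. The Cox11 difference between THSG plus dexamethasone and dexamethasone, 0.89 on the log2 scale, did not pass (adjusted p 0.227, limma). The number of copper genes that fell was 2 without dexamethasone replicate 2, without dexamethasone replicate 3 or without vehicle replicate 1.

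All 15 listed iron genes were measured, of which 2 rose and 5 fell, with a median log2 fold change of -0.07. With 12.7% of all genes called higher and 20.9% lower, these counts are likewise a description only. Slc40a1, the iron exporter ferroportin, fell by 0.77 on the log2 scale (adjusted p 7.51e-06, limma). It averaged 6.31 ± 0.393 FPKM with THSG plus dexamethasone, 6.89 ± 0.159 FPKM with dexamethasone and 11.8 ± 0.0274 FPKM with vehicle. Slc25a37, the mitochondrial iron importer, fell by 0.35 (adjusted p 0.000788, limma), and Steap3, a ferrireductase of endosomes, rose by 0.28 (adjusted p 0.00312, limma). The counts for iron depended on single libraries. The number that rose was 1 without THSG plus dexamethasone replicate 2 or 3, dexamethasone replicate 1 or 2, or vehicle replicate 2 or 3. The number that fell was 2 without dexamethasone replicate 1 or vehicle replicate 2, and 3 without dexamethasone replicate 2 or 3 or vehicle replicate 3.

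Metallothioneins are also counted among the thiol antioxidants, so the glutathione and thioredoxin genes were set beside them. All 21 listed were measured, of which 2 rose and 9 fell, with a median log2 fold change of -0.12. The whole-table shares to set beside these counts are 12.7% higher and 20.9% lower. Glrx, glutaredoxin, averaged 28.7 ± 1.28 FPKM with THSG plus dexamethasone, 29.98 ± 2.26 FPKM with dexamethasone and 15.9 ± 3.77 FPKM with vehicle, a log2 fold change of 0.93 (adjusted p 0.000219, limma). Gpx1, glutathione peroxidase, fell by 0.63 on the log2 scale (adjusted p 4.79e-05, limma), with 84.9 ± 6.01 FPKM with THSG plus dexamethasone, 86.0 ± 7.26 FPKM with dexamethasone and 132.7 ± 9.62 FPKM with vehicle. The peroxiredoxins Prdx4 and Prdx2 fell by 0.71 and 0.33 on the log2 scale (adjusted p 1.94e-05 and 0.000131, limma). Hmox1, heme oxygenase and a classic responder to oxidants and heavy metals, did not pass, with 22.8 ± 1.43 FPKM with THSG plus dexamethasone, 19.7 ± 0.674 FPKM with dexamethasone and 19.8 ± 2.53 FPKM with vehicle (adjusted p 0.975 for dexamethasone against vehicle, limma). The number that rose was 1 without dexamethasone replicate 1 or 2 or vehicle replicate 1 or 3.

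Interleukin-6 acting through STAT3 is another known inducer of metallothioneins. Of 14 listed genes of that response 11 were measured, and 3 rose and 5 fell, against 12.7% and 20.9% of all genes, with a median log2 fold change of -0.23. Il6ra, the receptor chain that binds interleukin-6, averaged 9.36 FPKM with THSG plus dexamethasone, 10.1 FPKM with dexamethasone and 1.93 FPKM with vehicle, a log2 fold change of 2.36 (adjusted p 5.35e-07, limma). Socs3, the feedback inhibitor that STAT3 induces, fell by 1.02 on the log2 scale (adjusted p 1.05e-06, limma), with 7.77 FPKM with THSG plus dexamethasone, 7.51 FPKM with dexamethasone and 15.3 FPKM with vehicle. Timp1, an inhibitor of metalloproteinases, fell by 1.54 (adjusted p 8.33e-10, limma), while the kinase gene Pim1, a known STAT3 target, rose by 0.72 (adjusted p 7.66e-06, limma).

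The measured genes among those listed around the locus did not share the size of the rise. The list does not hold every gene of the region. It has a gap between Herpud1, 3 genes after Mt1, and Rspry1, 8 genes after Mt1. Of 14 genes listed for the region, 9 were measured, and 1 of the others, Cetp, has no position in the annotation used. With dexamethasone 2 rose and 3 fell, against 12.7% and 20.9% of all genes, with log2 fold changes between -0.3 and 0.83. Nup93, a nuclear pore subunit and the next gene after Mt1, averaged 28.7 ± 1.15 FPKM with THSG plus dexamethasone, 26.6 ± 0.909 FPKM with dexamethasone and 27.0 ± 1.23 FPKM with vehicle, a log2 fold change of -0.02 (95% interval -0.14 to 0.1, adjusted p 0.807, limma). On the side of Mt2, Mt3 and Mt4 come first and have no row. The nearest measured gene there was Bbs2, of the ciliary BBSome, with 11.2 ± 0.681 FPKM with THSG plus dexamethasone, 11.01 ± 0.227 FPKM with dexamethasone and 8.72 ± 0.538 FPKM with vehicle, and a log2 fold change of 0.33 (adjusted p 0.00417, limma). Gnao1, a G protein alpha subunit that lies 7 genes before Mt2, rose by 0.83 (adjusted p 2.3e-07, limma), with 48.6 ± 1.66 FPKM with THSG plus dexamethasone, 49.5 ± 1.05 FPKM with dexamethasone and 27.8 ± 1.5 FPKM with vehicle. Herpud1 fell by 0.3 (adjusted p 0.00957, limma).

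**Figure D5:**
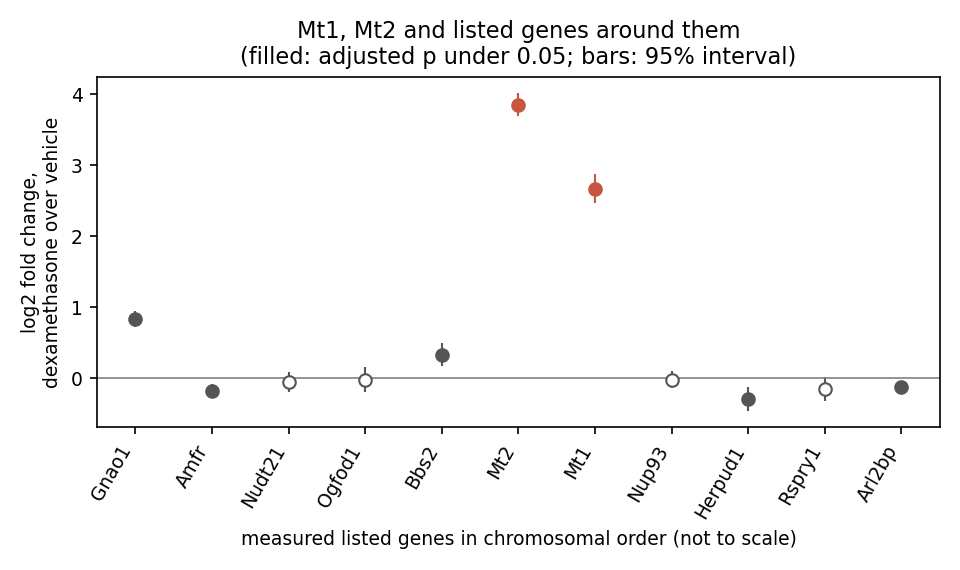
Log2 fold change for dexamethasone over vehicle, with 95% intervals, for Mt1, Mt2 and the 9 measured genes listed around them, in chromosomal order and not to scale. Filled points passed an adjusted p of 0.05. The 9 listed neighbours lie between -0.3 and 0.83, below Mt1 at 2.67 and Mt2 at 3.85.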

How the data were processed

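RNA of 9 C2C12 libraries was sequenced from stranded mRNA libraries, per the labels' protocols. STAR 2.7.10a, featureCounts and the build GRCm39 are named in the submitters' processing notes. The deposited values are fractional and were taken to be FPKM; no header or label states the unit, the transcript lengths or the filter. Of 10716 identifiers, 10670 matched GENCODE annotation of GRCm38, and 49 symbols were replaced by those of the annotation.

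A count test could not be used, so log2(FPKM + 0.1) was fitted with limma 3.58.1 in R 4.3.3 (all 9 libraries, 1 mean per group, intensity trend), two-sided, with Benjamini-Hochberg adjustment over all genes and a threshold of 0.05. The deposited values were neither filtered nor rescaled. Ratios were tested with exact permutation tests in scipy 1.17.1. The fitting code was tested on simulated data.

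Mt1, Mt2 and the 10 pathway lists and 6 marker lists were chosen with earlier results of these data known. From each list, up to 4 genes with the smallest p were eligible to be named, with Mtf1, Fkbp5, every zinc transporter that passed, the nearest neighbours and the 5 genes most like each metallothionein. Gclc, Nr3c1 and Hmox1 fall outside this rule and were named after their values were seen, for their known roles. The cell line field of the labels counts upward from C2C12, and the titles, which all name C2C12, were followed. Alternatives covered the pseudocount (0 and 1), scaling, a minimum mean of 5 FPKM, the variance model, the groups fitted, a replicate block, a correction for GC content and length (splines with 4 degrees of freedom), and leaving out each library.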

Additional observations from a re-analysis of the deposited data

How the results depend on the processing

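Mt1 and Mt2 kept their calls for dexamethasone against vehicle under all 20 alternatives run. The Mt1 log2 fold change ran between 2.55 and 2.76 when 1 library was left out and between 2.67 and 2.78 under the other alternatives, and that of Mt2 between 3.76 and 3.92 and between 3.83 and 4.01. For THSG plus dexamethasone against dexamethasone, neither gene passed under any of them, with Mt1 between 0.05 and 0.21 and Mt2 between 0.04 and 0.18. The GC and length correction took Mt1 at 1085 bases and 52.9% GC, its single-exon annotated transcript, and not at the 549 bases and 58.1% GC of the 3-exon one. Depth is unknown, so the precision of a value is known only from 3 libraries per group.

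The number of genes called for THSG plus dexamethasone against dexamethasone, 0, was 1 with a replicate block and 1 with the block and the GC and length correction together, and ran between 0 and 1 with a library left out (1 without dexamethasone replicate 3). Same-numbered libraries did not deviate together (9 pairs, r between -0.086 and 0.107, 1 over 0.1), so the numbers were not taken to pair them. With the replicate block, the log2 ratio of Mt2 to Mt1 with and without dexamethasone differed by 1.16 with p = 0.25, the smallest an exact sign-flip test of 3 pairs allows. With a library left out it ran between 1.09 and 1.19, with exact permutation p between 0.0357 and 0.0714.

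Of the 3601 genes called for dexamethasone against vehicle, 37.8% were higher, and this share was 50.5% with quantile normalization, 49.6% with median-ratio scaling, 42.3% with equal sums and 51.7% with the GC and length correction. Counts in the lists, chosen for these alternatives after the data were seen, moved as follows. With the GC and length correction, 4 iron genes and 4 thiol genes rose and 1 neighbour fell. With the replicate block added to it, 4 thiol genes rose, and 2 zinc importers and 1 neighbour fell. Iron genes that fell numbered 2 under quantile normalization and 2 under median-ratio scaling. They numbered 3 with equal sums, with only the 2 groups compared, and with the GC and length correction, with or without the block. With only the 2 groups compared, 1 iron gene and 1 thiol gene rose, and without an intensity trend 1 iron gene rose. With a minimum mean of 5 FPKM, 0 zinc exporters and 2 proliferation markers were called as lower, because listed genes under that mean were not tested. The cause of the other shifts was not tested.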
